A study of Mus musculus with 8 samples.

Results

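The comparison was of sorted mouse lung epithelial cells labelled STAT3-cKO (conditional knockout, here cKO) against cells labelled STAT3-WT (wild type, here WT), both from mice given house dust mite (HDM). It rests on 4 of the 8 RNA-seq libraries of the study, 2 labelled cKO HDM and 2 labelled WT HDM. The other 4 libraries, 2 of each genotype given phosphate-buffered saline (PBS), served to estimate the spread and to show each gene without allergen. Of the 25124 genes in the table, the 7512 whose mean over the 8 libraries reached 10 normalized counts were tested. A normalized count is a read count that the authors scaled for library depth. All groups are C57BL/6 mice, and the cells were sorted by flow cytometry as airway epithelial cells. The Cre driver and therefore the cells that lack STAT3, the HDM schedule, the hour of collection, and the age and sex of the mice stand in none of the sources used here. Whether each library came from its own mouse is not stated in the labels, and p-values therefore measure the spread between libraries, which may be technical.

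STAT3 is a transcription factor that Janus kinases phosphorylate when cytokines of the IL-6 family bind receptors that share the gp130 chain. It then enters the nucleus, where it induces acute-phase and survival genes and also Socs3, which encodes its own inhibitor. HDM is an allergen mixture with protease activity that provokes type 2 inflammation, in which IL-13 turns secretory cells of the airway into mucous cells. In the alveoli, type 2 cells make surfactant, a film of phospholipids and surfactant proteins whose lipids need fatty acid synthesis and desaturation.

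The libraries were shallow, with 232556 to 593200 reads each. The replicates correlated across genes at r = 0.68 in WT HDM and 0.77 in cKO HDM. The correlation of the first WT HDM library with each cKO HDM library was 0.70, above that with its own replicate. Stat3 (chr11:100886806-100939594), the targeted gene, stood at 134 and 157 normalized counts in WT HDM, against 76.9 and 92.2 in cKO HDM, with 75.8 and 40.9 in WT PBS, then 56.9 and 96.5 in cKO PBS. The HDM groups did not overlap, but the log2 difference of -0.78 ± 0.39 (cKO minus WT, standard error) did not pass (limma adjusted p = 0.549). A total over all exons need not fall when some exons are deleted, so that every direction below rests on the labels. The epithelial surface gene Epcam was detected in each library, at 99.7 to 179 normalized counts. The alveolar type 2 marker Sftpc was also present in each library, at 765 to 2878, so that the sorted cells were not of the conducting airways alone.

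Under HDM, 39 genes fell and 4 rose in the libraries labelled cKO (limma on log2(value + 1), Benjamini-Hochberg adjusted p under 0.05), which is 0.519% and 0.0532% of all genes tested and 0.572% together. At an unadjusted p under 0.05 there were 721 genes, 9.6% of those tested. Among the falls, 14 genes were on the lists of fatty acid synthesis or alveolar type 2 cells. Another 12 were on those of endothelium, fibroblasts, blood, macrophages or MHC class II. The lists were chosen with earlier results of these data known, so that these counts do not test them. The rises included Tef, a clock output factor, Dnah5, a dynein of motile cilia, and Fsd1l. All 43 genes had HDM libraries that did not overlap between genotypes, against 43.1% of all genes tested. Over all genes the median log2 difference was 0.02, with 50.8% of genes above 0 and 49.2% below. The recovered read counts gave 5 rises and 49 falls with edgeR, and 29 and 101 with DESeq2, and the 43 genes were among the calls of both. After quantile normalization 25 rose and 71 fell with limma. When limma moderated each spread towards 1 common value, in place of a value that follows the mean level, 0 genes passed (lowest adjusted p = 0.0704), with 608 at an unadjusted p under 0.05, and with no filter on low values 9 fell and none rose.

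**Figure D1:**
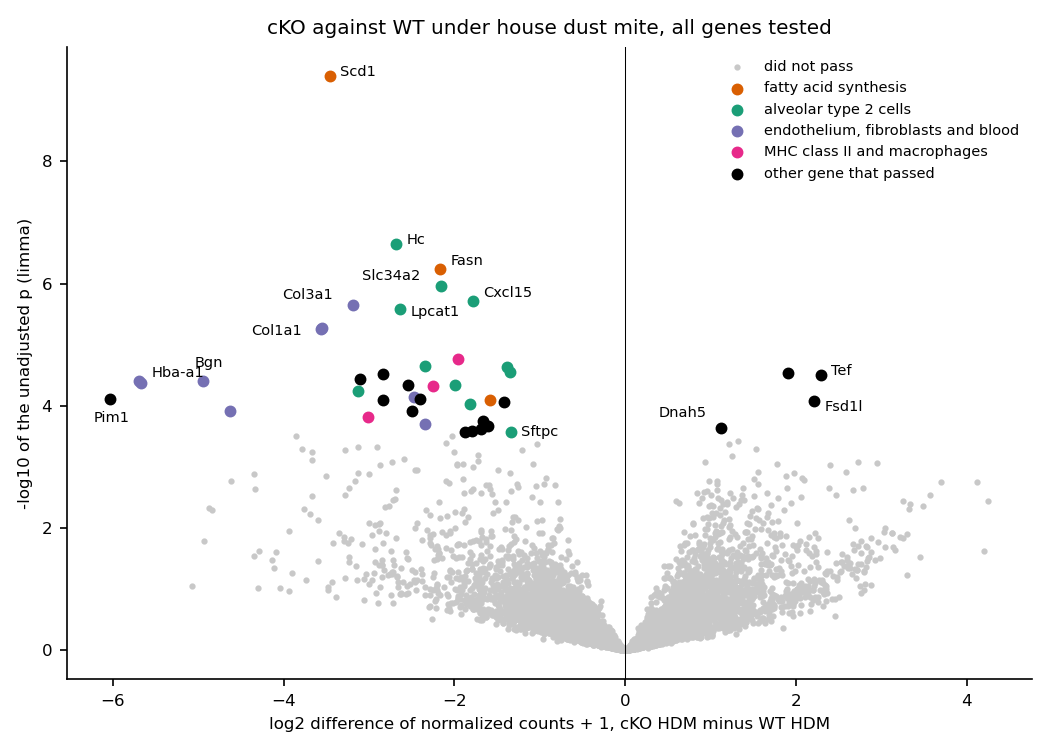
Each point is 1 of 7512 genes, with the log2 difference of cKO HDM minus WT HDM on the x axis and -log10 of limma's unadjusted p on the y axis. The 43 coloured points passed, and 39 of them lie left of 0, with Scd1 at -3.46 above the rest.

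In 42 of the 43 genes both WT HDM libraries lay outside the range of the 4 PBS libraries. In 15 of the 43 both cKO HDM libraries lay within that range. Both counts are of genes picked by a difference between the HDM groups. The shares over all genes tested were not counted, so the counts only describe the 43 genes. The number of calls depended on single libraries. With the second WT HDM library left out 3 genes passed, and with the first left out 50, of which 36 were higher in cKO. Leaving out the first cKO HDM library gave 13 and the second 12. The second WT PBS library left out gave 24, the first cKO PBS library 115 and the second 117. Scd1, Hc and Fasn passed in each of these 8 fits, and each of the other 40 genes lost its call in at least 1. None of the 43 changed direction in any of 21 alternative settings. Since their HDM libraries did not overlap, leaving out 1 library could not reverse a direction. Leaving out a PBS library or changing the variance model does not alter the HDM difference at all. The kept directions are thus no check of these genes.

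Genes that make and desaturate fatty acids were lower in cKO HDM. Scd1 (chr19:44394450-44407709), the desaturase that makes oleate from stearate, was at 2243 and 2569 normalized counts in WT HDM. It was at 194 and 243 in cKO HDM, with 599 and 670 in WT PBS, then 293 and 481 in cKO PBS. Both cKO HDM libraries were thus below all PBS libraries, and both WT HDM libraries above them. The log2 difference under HDM was -3.46 ± 0.25 (limma adjusted p = 2.99e-06), and -3.62 to -3.30 with 1 HDM library left out. Fasn (chr11:120805958-120825166), the synthase that builds palmitate, was at 526 and 442 in WT HDM, against 105 and 109 in cKO HDM, with 183 and 193 in WT PBS, then 187 and 140 in cKO PBS. It fell by 2.16 ± 0.26 on the log2 scale (limma adjusted p = 0.00145), to below all PBS libraries. Scd2 (chr19:44293676-44306864), a second desaturase beside Scd1 on the same chromosome, was at 327 and 392 in WT HDM, against 123 and 115 in cKO HDM, with 104 to 201 under PBS. Its log2 difference was -1.59 ± 0.30 (limma adjusted p = 0.0205), with both cKO HDM libraries inside the PBS range.

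Of 25 genes on the list of fatty acid synthesis and desaturation 17 were tested, and these 3 fell and none rose. The median log2 difference of the 17 was -1.09, against 0.02 over all genes tested. Of the 17, 15 were below 0, against 49.2% of all genes tested. Acly, which makes the cytosolic acetyl-CoA that synthesis starts from, was at 154 and 188 in WT HDM, against 82.0 and 77.2 in cKO HDM. Its difference of -1.09 ± 0.31 did not pass (limma adjusted p = 0.17). Elovl1 at -1.52 ± 0.44 and Fads1, a desaturase of polyunsaturated fatty acids, at -1.28 ± 0.41 did not pass with limma either. Elovl1 did pass with DESeq2 (adjusted p = 0.0434). Srebf1, the factor that drives many of these genes, was at 53.5 and 108 in WT HDM, against 73.3 and 50.7 in cKO HDM. The groups overlapped, and its interval ran from -1.19 to 0.56. Its RNA does not report how much of its protein is processed to the active form. The members above 0 were Acsl3, which activates fatty acids, at 0.66 ± 0.36, and Dgat2, which makes triglycerides, at 2.86 ± 1.20 from low counts. The whole list took 1.16% and 1.18% of the reads of WT HDM against 0.320% and 0.367% in cKO HDM, with 0.398% to 0.515% under PBS.

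Enzymes of the neighbouring pathways did not follow as a block. Of 22 cholesterol genes 16 were tested and none passed with limma or edgeR and 1 with DESeq2, with 12 below 0, a median of -0.52, and 4 at an unadjusted p under 0.05 (limma). H6pd, which makes NADPH within the endoplasmic reticulum, fell by 1.79 ± 0.38 (limma adjusted p = 0.0469). Of 20 genes of fatty acid oxidation and ketogenesis 14 were tested and 11 were above 0. Cpt1a, which lets fatty acids into mitochondria, stood at 0.93 ± 0.43 and Slc25a20, the carnitine carrier, at 1.82 ± 0.78, neither past the threshold.

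The sequence before the start that the promoter table lists for Fasn (RefSeq, GRCm38.p6) is shown as that of a fatty acid gene that fell. This start lies inside the span of the gene given above, so that the window is within the gene. Capitals mark matches of CCAAT on either strand, which lie 90, 62 and 59 bases before the start, the last 2 of which overlap.
Fasn, chr11:120824548-120824797, minus strand: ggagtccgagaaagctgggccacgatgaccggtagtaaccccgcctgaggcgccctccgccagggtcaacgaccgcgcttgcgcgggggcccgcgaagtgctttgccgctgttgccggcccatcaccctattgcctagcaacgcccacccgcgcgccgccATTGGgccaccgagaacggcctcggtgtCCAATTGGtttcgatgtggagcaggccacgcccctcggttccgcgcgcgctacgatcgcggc
These 250 bases were searched on both strands for CCAAT, for TTCNNNGAA, the palindrome that STAT dimers bind, for TCACNCCAC, a sterol response element, and for GTTGCCATG, a part of the X-box of ciliary genes. CCAAT was the 1 of the 4 that was found, and 33.8% of the 32851 promoters in the table hold it. A match is a description of the letters, not of a bound factor.

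Of the markers of alveolar type 2 cells, 11 of 21 tested fell in cKO HDM with limma, none rose and all 21 were below 0. With edgeR 13 of the 21 were called and with DESeq2 17. Over all genes tested, limma called 0.519% lower and 49.2% were below 0. Of 23 listed genes 22 were in the table. Their median log2 difference was -1.78 under HDM and 0.01 between the genotypes under PBS. Lpcat1, the acyltransferase that makes the saturated phosphatidylcholine of surfactant, was at 383 and 357 normalized counts in WT HDM, against 37.7 and 91.4 in cKO HDM, with 146 and 142 in WT PBS, then 79.7 and 85.1 in cKO PBS. It fell by 2.63 ± 0.36 on the log2 scale (limma adjusted p = 0.00284). Lamp3, a membrane protein of the lamellar bodies that store surfactant, was at 450 and 498 in WT HDM, against 115 and 73.9 in cKO HDM, within the 50.4 to 183 of PBS. Its difference was -2.34 ± 0.39 (limma adjusted p = 0.0144). Slc34a2 (chr5:53049353-53071664), a phosphate transporter of the apical membrane, was at 1924 and 2546 in WT HDM, against 496 and 499 in cKO HDM, with 356 to 836 under PBS. It fell by 2.15 ± 0.28 (limma adjusted p = 0.00207). Dram1, a lysosomal membrane protein, fell by 1.82 ± 0.35 (limma adjusted p = 0.0216), from 228 and 287 to 73.3 and 70.6, which is below all PBS libraries.

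Of the 4 surfactant protein genes Sftpb and Sftpc fell with limma and with edgeR, and DESeq2 called all 4. Sftpb was at 1069 and 1734 in WT HDM, against 486 and 589 in cKO HDM, with 766 to 909 under PBS, and fell by 1.35 ± 0.23 (limma adjusted p = 0.0145). Sftpc (chr14:70520941-70524081) was at 1519 and 2878 in WT HDM, against 856 and 801 in cKO HDM, with 765 to 1289 under PBS, and fell by 1.34 ± 0.28 (limma adjusted p = 0.0473). The WT HDM libraries were the higher ones for both genes, and the second was above the first. The collectins, which bind microbes, did not pass with limma: Sftpa1 stood at -0.82 ± 0.22 (limma adjusted p = 0.141) and Sftpd at -0.92 ± 0.24 (limma adjusted p = 0.13). Both passed with DESeq2 (adjusted p = 0.00773 for Sftpa1 and 0.00601 for Sftpd). Abca3, the lipid pump of lamellar bodies, stood at -0.95 ± 0.25, and Napsa, a protease that processes surfactant proteins, at -1.72 ± 0.40. Neither passed with limma, and both did with DESeq2 (adjusted p = 0.0154 for Abca3 and 0.00342 for Napsa). Ctsh, another such protease, stood at -0.20 ± 0.29 and did not pass with either. The 5 genes from Sftpa1 to Ctsh were chosen after their values had been seen, as members of the same pathway.

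**Figure D2:**
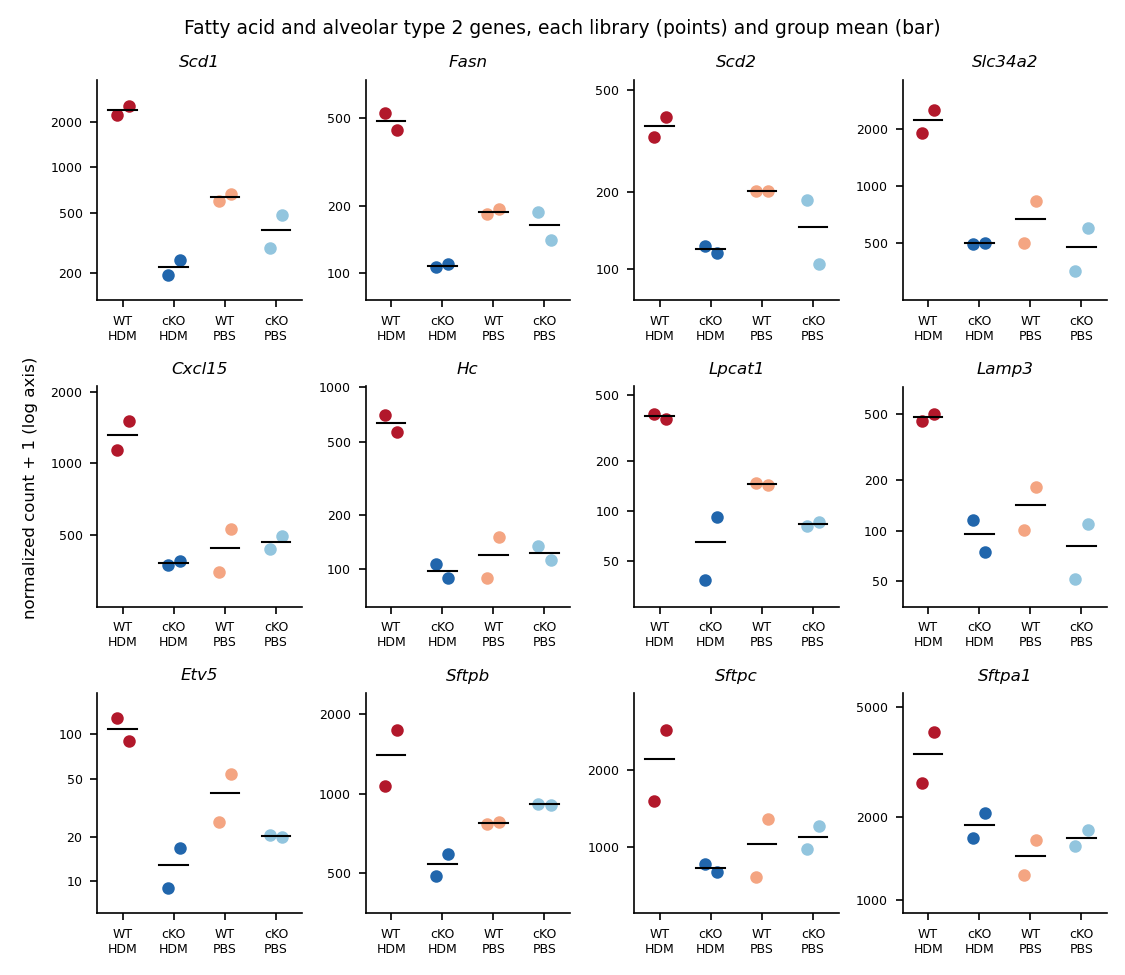
Normalized count + 1 on a log axis for 12 genes of fatty acid synthesis and alveolar type 2 cells, with 1 point for each of the 8 libraries and a bar at the mean of the 2 libraries of a group. In each panel both WT HDM points lie above both cKO HDM points, by the most in Scd1, at 2243 and 2569 against 194 and 243.

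Hc (chr2:34983329-35068506), complement C5, was at 701 and 565 in WT HDM, against 106 and 88.9 in cKO HDM, with 88.8 and 149 in WT PBS, then 133 and 112 in cKO PBS. WT HDM was above all other libraries, and WT PBS overlapped both cKO groups, with cKO HDM below cKO PBS. Hc fell by 2.68 ± 0.30 (limma adjusted p = 0.000831). Cxcl15 (chr5:90794534-90803067), a chemokine of lung epithelium, was at 1131 and 1503 in WT HDM, against 370 and 385 in cKO HDM, with 347 to 527 under PBS, and fell by 1.78 ± 0.24 (limma adjusted p = 0.0028). Chil1, a chitinase-like protein, was at 1171 and 1544 in WT HDM, against 506 and 523 in cKO HDM, both above the 228 to 290 of PBS. Its difference of -1.38 ± 0.23 passed (limma adjusted p = 0.0144), with cKO HDM between the PBS libraries and WT HDM. Of the other complement genes, C3 at -0.76 ± 0.26 did not pass, and of 10 tested of 23 listed 7 were below 0, with 1 call, Hc, by limma and by edgeR and 2 calls by DESeq2. Il33, an alarmin that type 2 cells hold in their nuclei, was at 104 and 162 in WT HDM, against 20.3 and 13.3 in cKO HDM, with 6.35 to 20.9 under PBS. Its difference of -2.91 ± 0.66 missed the threshold with limma (adjusted p = 0.0697) and passed with edgeR (adjusted p = 0.0175).

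Etv5, the ETS factor that maintains type 2 cells, was at 128 and 89.0 in WT HDM, against 7.98 and 15.8 in cKO HDM, with 24.5 and 52.7 in WT PBS, then 19.5 and 19.0 in cKO PBS. It fell by 3.13 ± 0.57 (limma adjusted p = 0.0176), to below all PBS libraries. Lgi3, a secreted protein with leucine-rich repeats, fell from 212 and 312 to 71.8 and 56.5 (limma adjusted p = 0.0153). Lyz1 and Lyz2 are lysozymes with shared sequence. Lyz2 fell by 1.96 ± 0.32 (limma adjusted p = 0.0127), while Lyz1 at -2.10 ± 0.47 did not pass with limma (adjusted p = 0.0638) but did with edgeR (adjusted p = 0.0327). Lyz2 is made by macrophages as well as by type 2 cells. In bulk libraries fewer cells of a type and less RNA per cell cannot be told apart.

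Levels relative to Sftpc were also set side by side, as log2 ratios within a library. For Scd1 the ratio was 0.56 and -0.16 in WT HDM against -2.14 and -1.72 in cKO HDM. It was -0.35 and -0.94 in WT PBS against -1.74 and -1.33 in cKO PBS. Both cKO groups were thus below both WT groups. For Hc it was -1.12 and -2.35 in WT HDM against -3.01 and -3.17 in cKO HDM, and for Slc34a2 0.34 and -0.18 against -0.79 and -0.68. For Sftpb it was -0.51 and -0.73 against -0.82 and -0.44, and the groups overlapped. For Sftpa1 the order was the opposite, at 0.81 and 0.50 in WT HDM against 0.97 and 1.36 in cKO HDM. For Fasn it was -1.53 and -2.70 against -3.02 and -2.88, with -2.06 to -3.11 under PBS. These ratios were computed after the values had been seen and were not tested.

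Genes of the thin gas-exchange surface and of transport fell in part. Of 21 alveolar type 1 genes 14 were tested, Ager and Cav1 fell and the median was -0.11. Ager, a receptor that type 1 cells carry in quantity, was at 170 and 240 normalized counts in WT HDM, against 63.1 and 60.6 in cKO HDM, with 55.9 to 87.6 under PBS. It fell by 1.69 ± 0.36 (limma adjusted p = 0.0455). Cav1, the coat protein of caveolae in type 1 and endothelial cells, was at 107 and 98.0 in WT HDM, against 18.9 and 15.8 in cKO HDM, below the 25.3 to 46.4 of PBS. Its difference was -2.50 ± 0.49 (limma adjusted p = 0.0267). Aqp5, the type 1 water channel, did not pass at -0.98 ± 0.46.

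Membrane and secreted proteins on none of the lists fell as well. Mme, the peptidase neprilysin, was at 110 and 103 in WT HDM, against 17.4 and 7.48 in cKO HDM, with 21.4 to 68.3 under PBS, and fell by 3.10 ± 0.54 (limma adjusted p = 0.0153). Slc39a8, an importer of zinc and manganese, was at 114 and 147 in WT HDM, against 12.3 and 24.1 in cKO HDM, with 36.7 to 80.9 under PBS, and fell by 2.84 ± 0.48 (limma adjusted p = 0.0145). For both genes cKO HDM was below all other libraries. Adgrf5, the adhesion receptor that limits surfactant secretion, fell by 1.42 ± 0.27 (limma adjusted p = 0.0208), and Selenop, the selenium carrier, fell by 1.60 ± 0.33 (limma adjusted p = 0.0416). Slc43a2, an amino acid transporter, differed in its pattern, with 125 and 132 in WT HDM against 35.6 and 44.0 in cKO HDM, then 144 and 133 in WT PBS against 66.7 and 54.6 in cKO PBS. It fell by 1.67 ± 0.34 under HDM (limma adjusted p = 0.0363), and its difference of -1.18 ± 0.34 under PBS did not pass (limma adjusted p = 0.659). It was the 1 called gene whose WT HDM libraries were not both outside the PBS range.

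Genes of vessels, connective tissue and blood were lower in cKO HDM, though the sort was for epithelium. Col3a1 (chr1:45311538-45349706), a fibrillar collagen, was at 461 and 500 normalized counts in WT HDM, against 59.5 and 44.9 in cKO HDM, with 16.3 to 38.1 under PBS. Both HDM groups were above the PBS libraries, and it fell by 3.19 ± 0.43 between genotypes (limma adjusted p = 0.0028). Col1a1 at -3.55 ± 0.52 (limma adjusted p = 0.00462), Col1a2 at -4.63 ± 0.90 (limma adjusted p = 0.0267) and Bgn, a matrix proteoglycan, at -4.95 ± 0.87 (limma adjusted p = 0.0153) fell as well. Bgn had 86.7 and 148 in WT HDM against 2.18 and 3.32 in cKO HDM, which is close to the floor of 3 reads per library. Fn1, fibronectin, chosen after its values were seen, was at 130 and 95.4 in WT HDM, against 95.1 and 97.2 in cKO HDM, with 6.35 to 10.9 under PBS. The HDM groups overlapped, and its interval ran from -1.32 to 0.90, which takes in a clear fall as well as a rise.

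Of the endothelial genes, Acvrl1, a receptor of the TGF-beta family, was at 137 and 144 in WT HDM, against 7.98 and 14.95 in cKO HDM, with 20.3 to 26.4 under PBS. It fell by 3.56 ± 0.52 (limma adjusted p = 0.00462), to below all PBS libraries. Calcrl, the adrenomedullin receptor, fell by 2.47 ± 0.46 (limma adjusted p = 0.0205), and Cdh5, the cadherin of endothelial junctions, fell by 2.34 ± 0.48 (limma adjusted p = 0.0405). Vwf at -2.03 ± 0.44 missed the threshold with limma (adjusted p = 0.0528) and passed with edgeR (adjusted p = 0.0483). Genes that endothelium shares with other cells also fell: the water channel Aqp1 at -2.54 ± 0.45 (limma adjusted p = 0.0153), the semaphorin and VEGF coreceptor Nrp1 at -2.84 ± 0.53 (limma adjusted p = 0.0205), the focal adhesion protein Tns1 at -2.40 ± 0.45 (limma adjusted p = 0.0205), and Thbs1, thrombospondin, at -1.88 ± 0.40 (limma adjusted p = 0.0473). Hba-a1 and Hba-a2 encode the same haemoglobin chain and their reads cannot be told apart. They fell together, at -5.69 ± 1.00 and -5.67 ± 1.00 (limma adjusted p = 0.0153 for each). Hba-a1 was at 69.8 and 147 in WT HDM, against 2.90 and 0 in cKO HDM, so that the size of its fall depends on the pseudocount.

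Summed over all listed markers, with no filter on low values, several other cell types moved with the genotype under HDM, and granulocytes and mesothelial cells did not. Fibroblast and smooth muscle genes took 0.478% and 0.475% of the reads of WT HDM against 0.0454% and 0.0451% in cKO HDM, with 0.0185% to 0.0386% under PBS. Endothelial genes took 0.403% and 0.420% in WT HDM against 0.0736% and 0.0988% in cKO HDM, with 0.0893% to 0.115% under PBS. Red blood cell genes took 0.0821% and 0.134% in WT HDM against 0.00548% and 0.000881% in cKO HDM. Macrophage and dendritic cell genes took 0.347% and 0.578% in WT HDM against 0.119% and 0.122% in cKO HDM, with 0.122% to 0.219% under PBS. For each of these lists both WT HDM libraries were above the other 6. Lymphocyte genes gave 60 and 69 reads in the WT HDM libraries and 3 and 0 in the cKO HDM libraries, and 8 of the 18 were at 0 in every HDM library. Granulocyte genes took 0.0705% and 0.0950% in WT HDM against 0.0209% and 0.0817% in cKO HDM, with 0.0796% to 0.148% under PBS. Mesothelial genes took 0.0585% and 0.0478% against 0.0552% and 0.0610%. The HDM groups overlapped for both lists. The part of these other cells in the falls of alveolar genes was not tested.

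**Figure D3:**
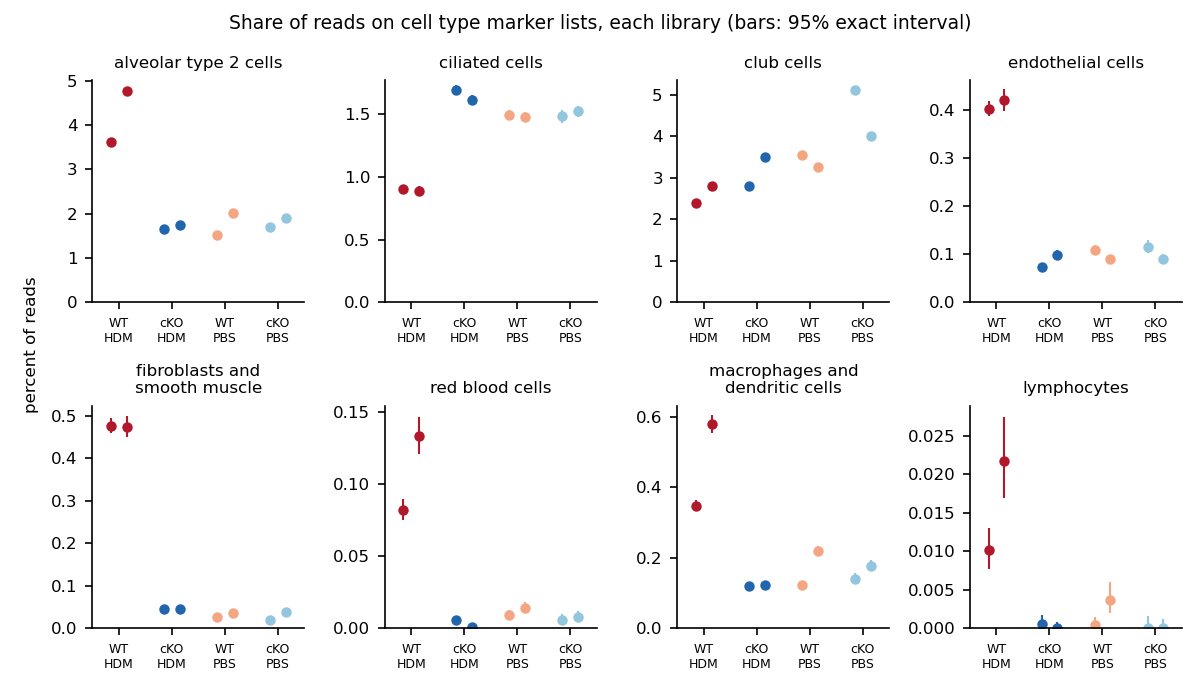
Percent of each library's reads that fell on the markers of 8 cell types, with 1 point per library and bars for the exact 95% binomial interval, which covers counting error only. The WT HDM libraries are the highest for type 2, endothelial, fibroblast, blood, macrophage and lymphocyte lists. They are the lowest for ciliated and for club cell genes. For club cell genes the second WT HDM library, at 2.79%, is close to the first cKO HDM library, at 2.80%.

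Of the marker lists, 10 of 21 fibroblast genes were tested, 4 fell with limma and all 10 were below 0, with a median of -3.45. For this list edgeR called 6 and DESeq2 7. Of 22 endothelial genes 16 were tested, 3 fell with limma and all 16 were below 0, with a median of -2.37. Here edgeR called 4 and DESeq2 8. A low gene can enter the test through the group in which it is high, so that these counts describe the members and do not test the list. Among all genes tested, limma called 0.519% lower and 49.2% were below 0. Ptprc, which marks all leukocytes, was below the mean set for testing, with 12.4 and 37.4 normalized counts in WT HDM and 0 in both cKO HDM libraries. In all, 35 genes had 0 reads in both cKO HDM libraries and at least 10 normalized counts in both WT HDM libraries, a rule set after the values were seen. They include the leukocyte genes Csf1r, Srgn, Il1b and Cd40, the smooth muscle gene Tagln and the fibroblast genes Fbln2 and Dpt. The reverse held for 6 genes: Ky, Pik3ip1, Gm11517, Brd3os, Naa38 and C1qtnf4.

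MHC class II genes, which present antigen to CD4+ T cells, were lower too. Cd74, the invariant chain, was at 364 and 749 normalized counts in WT HDM, against 127 and 93.0 in cKO HDM, with 42.3 to 88.9 under PBS. It fell by 2.25 ± 0.40 (limma adjusted p = 0.0153) and stayed above all PBS libraries in cKO HDM. H2-Aa was at 99.1 and 199 in WT HDM, against 17.4 and 15.8 in cKO HDM, within the 9.19 to 32.5 of PBS, and fell by 3.01 ± 0.60 (limma adjusted p = 0.0324). H2-Ab1 at -3.78 ± 0.86 and H2-Eb1 at -2.05 ± 0.71 did not pass. Of 10 class II genes 5 were tested, all below 0 with a median of -2.25. Of 16 MHC class I genes 13 were tested and none passed with limma, edgeR or DESeq2. The lowest p was that of H2-Q4, at -1.48 ± 0.64, and 1 had an unadjusted p under 0.05. Their median was -0.52, and genes of the MHC may share reads. Which cells gave the class II transcripts was not tested, and the macrophage list moved the same way.

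Of 30 classical STAT3 targets 22 were tested, 17 were below 0, 1 fell and none rose, with a median of -0.78. These counts include Stat3 itself, the targeted gene. Of all genes tested 49.2% were below 0 and 0.519% fell. The fallen gene of the list was Pim1 (chr17:29490785-29496111), a survival kinase that STAT3 and other STATs induce. It was at 43.7 and 94.1 normalized counts in WT HDM, against 0 and 0 in cKO HDM, with 3.83 and 4.55 in WT PBS, then 13.0 and 25.4 in cKO PBS. The WT HDM mean of 68.9 was 29.5-fold the cKO HDM floor of 2.33, which stands for 3 reads in each cKO HDM library. This ratio leaves out the spread between the WT HDM libraries and is not a lower bound. The fitted log2 difference of -6.03 ± 1.13 (limma adjusted p = 0.0205) depends on the pseudocount. Under PBS the order was the opposite, at 1.89 ± 1.13, which did not pass. The difference between the 2 genotype differences was -7.92 ± 1.59 and did not pass either (limma adjusted p = 0.155).

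The start of Pim1 is shown since it was the STAT3 target that fell. Neither the 250 bases below nor the same stretch before its second listed start held any of the 4 sequences searched, TTCNNNGAA included, which 7.02% of the 32851 promoters hold. That says only that these letters are not in this window, and enhancers were not searched.
Pim1, chr17:29490535-29490784, plus strand: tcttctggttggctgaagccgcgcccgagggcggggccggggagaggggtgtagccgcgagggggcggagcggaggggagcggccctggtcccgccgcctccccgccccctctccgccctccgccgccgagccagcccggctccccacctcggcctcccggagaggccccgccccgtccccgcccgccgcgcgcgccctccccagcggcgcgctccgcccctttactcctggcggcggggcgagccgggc

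Other members of the STAT3 pathway did not pass with limma. Lrg1, an acute-phase glycoprotein, was at 66.5 and 81.2 in WT HDM, against 2.18 and 3.32 in cKO HDM, with 0 to 9.19 under PBS. Its difference of -4.33 ± 1.18 did not pass with limma (adjusted p = 0.15) and did with edgeR (adjusted p = 0.0163). Socs3, the feedback inhibitor, was at 30.0 and 32.2 in WT HDM, against 31.9 and 30.7 in cKO HDM, with 1.82 to 36.8 under PBS. Its log2 difference of 0.01 had an interval from -2.02 to 2.04, so that a 4-fold change in either direction lies inside it. Junb stood at -0.79 ± 0.27, Icam1 at -1.46 ± 0.56 and Fos at -0.16 ± 0.25. Among the receptors, Il4ra, the chain shared by the IL-4 and IL-13 receptors, was at 52.2 and 46.4 in WT HDM, against 8.71 and 11.6 in cKO HDM. It stood at -2.18 ± 0.88 (limma adjusted p = 0.433), Lifr at -1.97 ± 0.75 and Il6st, which encodes gp130, at -0.63 ± 0.28. Il13ra1 was at 0.86 ± 0.34 and Il22ra1 at 3.25 ± 1.18. Of 23 receptor and regulator genes 14 were tested and none passed with limma, edgeR or DESeq2, with 6 at an unadjusted p under 0.05 and a median of 0.02. All 7 tested of 11 STAT and Janus kinase genes, Stat3 among them, were below 0. None passed and none had an unadjusted p under 0.05, and the median was -0.62.

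**Figure D4:**
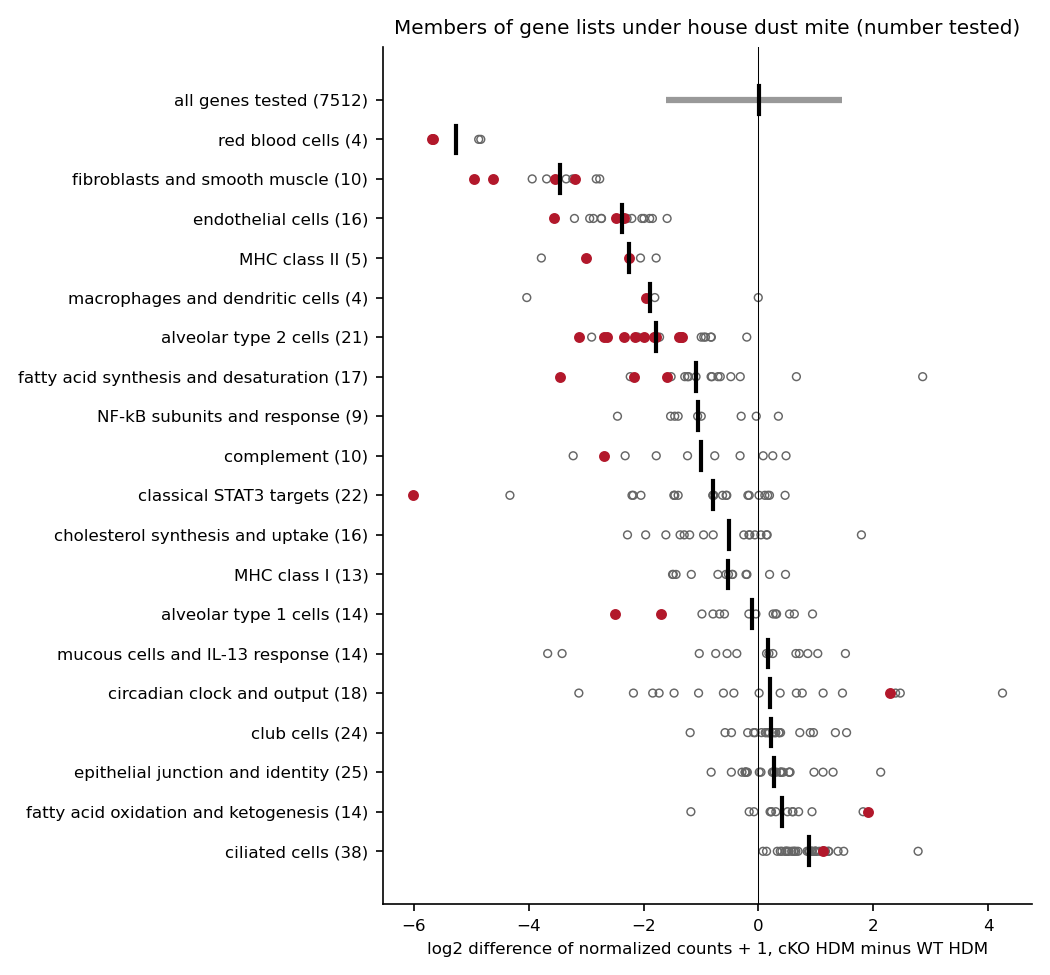
Log2 difference of cKO HDM minus WT HDM for the tested members of 19 gene lists, with filled red points for genes that passed, open points for those that did not, and a black bar at each list's median. The grey band in the top row spans the 5th to 95th percentile of all 7512 genes, and the medians run from -5.27 for red blood cell genes to 0.88 for ciliated genes.

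Genes of ciliated cells, which beat mucus out of the airway, were higher in cKO HDM. All 38 tested of 40 listed genes were above 0, with a median of 0.88 under HDM and -0.01 between the genotypes under PBS. Of all genes tested 50.8% were above 0 under HDM. Dnah5 (chr15:28154854-28472045), a heavy chain of the outer dynein arm, was at 200 and 236 normalized counts in WT HDM, against 449 and 502 in cKO HDM, with 375 and 446 in WT PBS, then 467 and 363 in cKO PBS. WT HDM was below the other 6 libraries, and Dnah5 rose by 1.13 ± 0.24 (limma adjusted p = 0.0439). Foxj1, the master regulator of motile cilia, was at 380 and 395 in WT HDM, against 810 and 682 in cKO HDM, with 485 to 708 under PBS. Its difference of 0.94 ± 0.23 did not pass with limma (adjusted p = 0.0952) and did with DESeq2 (adjusted p = 0.00336). Ccdc40, needed to assemble inner dynein arms, stood at 0.98 ± 0.26, Dnah9 at 1.39 ± 0.38 and Ubxn10 at 1.25 ± 0.29, none past the threshold with limma. Ccdc40 passed with DESeq2 (adjusted p = 0.0275). Erich3, a further gene of cilia, stood at 2.73 ± 0.66 from low counts (limma adjusted p = 0.0952). The ciliated list took 0.901% and 0.890% of the reads of WT HDM against 1.69% and 1.61% in cKO HDM, with 1.48% to 1.52% under PBS. The part of the higher shares of other cell types in WT HDM in this was not tested. The promoter table lists 1 start for Dnah5, inside the gene, with 1 match of TTCNNNGAA at 221 bases before it.

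Of 20 listed genes of the circadian clock and its output 18 were tested, 10 were above 0 and 8 below, and 1, Tef, passed with limma and with edgeR. DESeq2 called Tef, Dbp, Per2 and Npas2. Tef (chr15:81802673-81826863), a PAR bZIP factor that the clock drives, was at 30.0 and 24.5 normalized counts in WT HDM, against 163 and 115 in cKO HDM, with 77.3 and 55.5 in WT PBS, then 104 and 67.3 in cKO PBS. WT HDM was below all other libraries and cKO HDM above them, and Tef rose by 2.30 ± 0.39 (limma adjusted p = 0.0145). Its relative Dbp was at 8.48 and 0 in WT HDM, against 76.9 and 43.2 in cKO HDM, a difference of 4.25 ± 1.24 that missed the threshold (limma adjusted p = 0.182). Per2, a repressor of the clock, was at 7.17 and 10.3 in WT HDM, against 51.5 and 53.2 in cKO HDM, with 7.62 to 41.3 under PBS. It stood at 2.47 ± 0.70, and Nr1d2, which represses Arntl, at 2.39 ± 0.65. Some clock genes were below 0. The activator Npas2 was at 27.4 and 64.5 in WT HDM, against 2.18 and 6.64 in cKO HDM, a difference of -3.13 ± 0.79 (limma adjusted p = 0.115). Arntl stood at -2.18 ± 0.88, Nfil3, which binds the same sites as Tef and Dbp, at -1.84 ± 0.81, and Cry1 at -1.47 ± 0.81, none past the threshold with limma. Clock, the partner of Arntl, was near 0, at 0.01 ± 0.58. The sources used here do not give the hour of sampling.

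**Figure D5:**
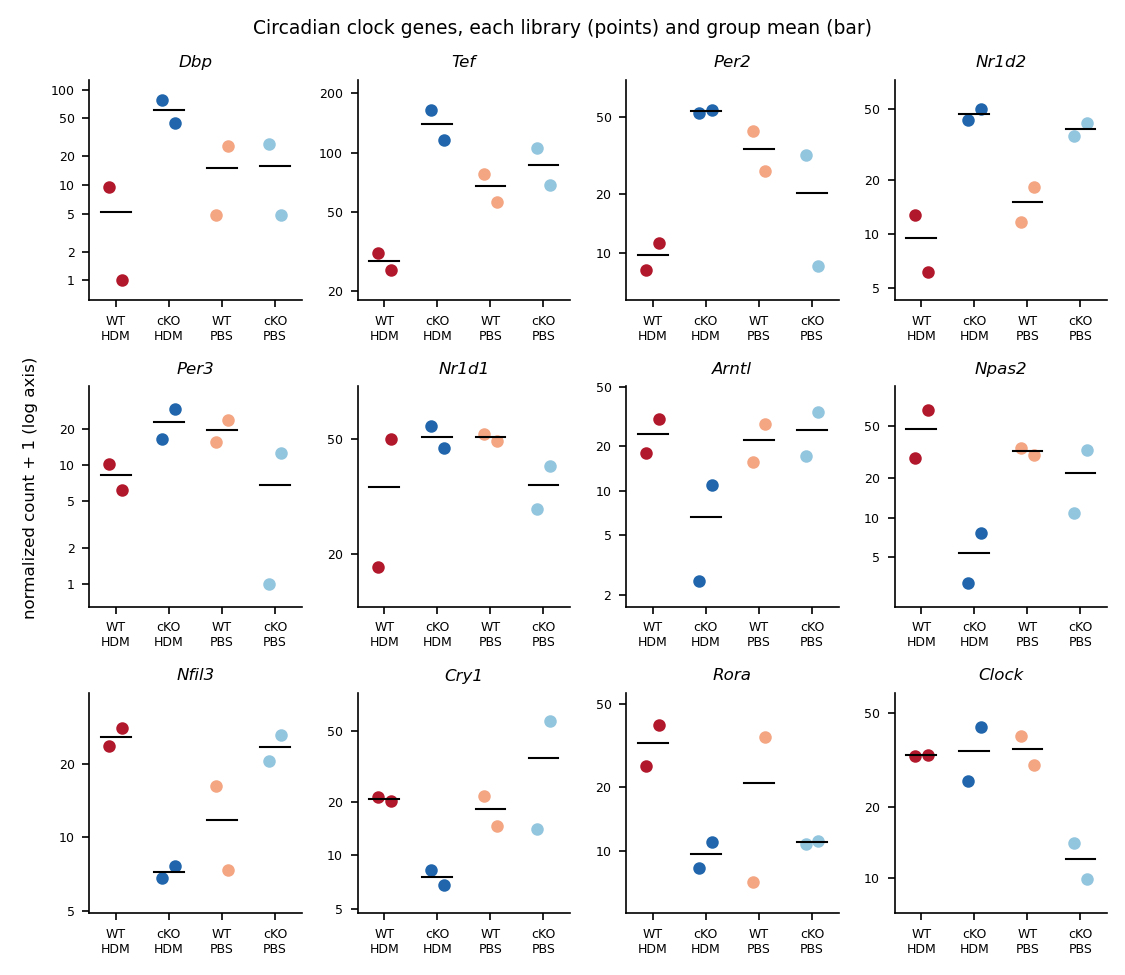
Normalized count + 1 on a log axis for 12 clock genes, with 1 point per library and a bar at each group mean. Dbp, Tef, Per2 and Nr1d2 are lowest in WT HDM and highest in cKO HDM by group mean, and Arntl, Npas2, Nfil3, Cry1 and Rora are lowest in cKO HDM.

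Fsd1l (chr4:53631383-53707009) also rose, at 26.1 and 20.6 in WT HDM, against 124 and 99.7 in cKO HDM, with 50.9 to 96.4 under PBS, a difference of 2.21 ± 0.42 (limma adjusted p = 0.0205). Among genes above 0, those next in order of p did not pass with limma. Herpud1, which serves the disposal of misfolded proteins from the endoplasmic reticulum, was at 79.6 and 74.8 in WT HDM, against 211 and 179 in cKO HDM. It stood at 1.32 ± 0.29 (limma adjusted p = 0.0615) and passed with edgeR (adjusted p = 0.0483). Col8a2, a short-chain collagen, stood at 1.21 ± 0.27 (limma adjusted p = 0.0638) and Cyp2a5, a cytochrome P450 of club cells, at 1.54 ± 0.35 (limma adjusted p = 0.0723). The 19 tested of 25 genes of the unfolded protein response had a median of -0.11, and none passed with limma, 1 having an unadjusted p under 0.05. Herpud1 was the 1 that edgeR and DESeq2 called.

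Of 27 genes on the list of mucous cells and the IL-13 response 14 were tested, and none passed with limma, 1 with edgeR and 2 with DESeq2. Clca1, a product of mucous cells, was at 1884 and 1104 normalized counts in WT HDM, against 1565 and 3287 in cKO HDM, with 102 to 784 under PBS. The HDM groups overlapped, and the interval of the difference ran from -0.32 to 1.63. Retnla, a type 2 effector, was at 899 and 1310 in WT HDM, against 938 and 1120 in cKO HDM, with 107 to 394 under PBS, and its interval was -0.96 to 0.80. Chia1, an acidic chitinase, was at 305 and 464 in WT HDM, against 321 and 206 in cKO HDM, with 17.9 to 45.5 under PBS, and its interval was -1.47 to 0.38. Both HDM groups were above all PBS libraries for these 3 genes. Muc5ac, the inducible mucin, was at 62.0 and 37.4 in WT HDM, against 31.9 and 103 in cKO HDM, with an interval from -1.79 to 2.29. Over the 14 tested genes 4 had an unadjusted p under 0.05 (limma) and the median was 0.16. Single libraries set the sign of that median, which was 0.87 without the first cKO HDM library, -0.73 without the second, 0.46 without the first WT HDM library and -0.083 without the second.

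Chil3 and Slc26a4 were the members that edgeR or DESeq2 called. Chil3 was at 193 and 370 in WT HDM, against 31.9 and 12.5 in cKO HDM, with 0 to 5.46 under PBS. Its difference was -3.67 ± 0.85, which did not pass with limma (adjusted p = 0.0749) and did with edgeR (adjusted p = 0.00147). Its close paralog Chil4 was at 154 and 64.5 in WT HDM, against 189 and 434 in cKO HDM, at 1.52 ± 0.86. Their reads may be split with error, but the difference had opposite signs for both. Slc26a4, the anion exchanger pendrin, was at 104 and 148 in WT HDM, against 21.8 and 4.98 in cKO HDM, and at -3.42 ± 1.28 it did not pass (limma adjusted p = 0.382).

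Club cell genes, of the secretory cells of the small airways, were measured well and did not pass. Scgb1a1, the secretoglobin that defines them, was at 1545 and 2440 in WT HDM, against 1589 and 2189 in cKO HDM, with 2026 to 4213 under PBS. Its interval ran from -0.56 to 0.45, within 1 log2 unit of 0 on both sides. Cyp2f2 was at 1660 and 1894 in WT HDM, against 1660 and 2454 in cKO HDM, with an interval from -0.26 to 0.64. All 24 club cell genes were tested, 18 were above 0, none passed with limma or edgeR and 1, Cyp2a5, with DESeq2, and 4 had an unadjusted p under 0.05 (limma), with a median of 0.22. The lists that stand for general cell state had medians near that of all genes: -0.16 for 31 ribosomal protein genes, 0.08 for 27 of the respiratory chain, 0.28 for 25 of epithelial junctions and identity, and -0.03 for 13 of the interferon response, with no call by limma, edgeR or DESeq2 in any and 1 unadjusted p under 0.05, in a ribosomal gene. The interferon median was -0.65 with the first cKO HDM library left out and 0.30 with the second left out. Genes of epithelial junctions and identity took 0.846% and 0.788% of the reads of WT HDM against 0.971% and 0.877% in cKO HDM. Under PBS they took 0.921% to 0.968%.

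Without allergen the genotypes were not told apart gene by gene. Between cKO PBS and WT PBS limma, edgeR and DESeq2 each called 0 genes, 0% of those tested. At an unadjusted p under 0.05 limma found 523 genes, 6.96% of those tested, edgeR 410 and DESeq2 401. Without the first cKO PBS library 53 genes passed and without the second 315. Scd1 stood at -0.75 ± 0.25 (limma adjusted p = 0.667), Fasn at -0.21 ± 0.26, Hc at 0.08 ± 0.30 and Sftpc at 0.13 ± 0.28. The genotype difference under HDM minus that under PBS passed for 2 genes with limma, 0.0266% of those tested. These were Scd1 at -2.71 ± 0.35 (adjusted p = 0.00828) and Hc at -2.77 ± 0.43 (adjusted p = 0.0386), and edgeR called 7 and DESeq2 27. No gene passed without either WT HDM library, either WT PBS library and without the first one of cKO HDM, while 1 passed without the second cKO HDM library. There were 19 calls without the first cKO PBS library and 115 without the second. For the other called genes the difference between treatments did not pass, among them Fasn at -1.95 ± 0.37 (limma adjusted p = 0.14), Cxcl15 at -1.90 ± 0.34 (limma adjusted p = 0.122), Tef at 1.95 ± 0.56 and Dnah5 at 1.12 ± 0.33.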

How the data were processed

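The deposited table gives, per the submitters' processing notes, values made with HOMER and DESeq2 on the mouse build mm10, with no versions. The authors' values are a signal per gene and library: read counts after the authors' normalization. The low-input library kit keeps strand, per the labels' protocols. The aligner and the annotation are named in none of the sources used here, nor is the strand setting of the counting, so that overlapping and antisense genes are uncertain.

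Within a library 100% of the deposited values were whole multiples of the value of 1 read, within 0.01 reads. The whole reads recovered in this way, 232556 to 593200 per library, were tested with edgeR 4.0.16 (54 calls for cKO against WT under HDM) and DESeq2 1.42.0 (130). A gene at 0 reads allows up to 3 reads. Both this limit and the 95% intervals, exact by Clopper-Pearson, cover counting error only.

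The main test was limma 3.58.1 under R 4.3.3 (linear fits with a moderated spread that follows the mean, two-sided) on log2(value + 1), with 1 mean for each of 4 groups over all 8 libraries. Genes with a mean of at least 10 were tested, and p-values were adjusted over all of them by Benjamini-Hochberg. Log2 differences understate the change of low genes. Errors after ± are standard errors, and intervals are 95%. The test was tried on simulated data, with 50 genes changed at each size. It found 4% of the genes whose level was changed by a factor of 2. Where the factor was 4 it found 28%. The largest factors, 8 and 16, gave 66% and 60%. False calls were 3 among 82. A gene that did not pass can therefore still differ between the genotypes.

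Named are the genes that passed, rises filled to 10 by smallest p, up to 4 members of a list by smallest p, and a fixed set around STAT3, surfactant, club, mucous and ciliated cells. Other genes were named after their values were seen, and a few that the rule names are not reported here. The comparison, its lists and its tests were chosen with earlier results of these data known. Alternatives were 2 other pseudocounts, 2 other filters, 2 scalings, 3 variance models or weights, a replicate block, fits of 4 libraries, both count tests and each library left out. Same-numbered libraries deviated together at r = -0.02 to 0.02 across genes. In libraries this shallow that cannot decide whether the numbers pair them, and the labels do not say. Positions and promoters are RefSeq's for GRCm38.p6, the same assembly as mm10. All 43 genes that passed had a position and 33 a promoter.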

Additional observations from a re-analysis of the deposited data

Results flagged for a closer look

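The genotype difference differed between the treatments for 2 genes. For Scd1, the log2 difference of cKO minus WT under HDM minus that under PBS was -2.71 ± 0.35 (limma adjusted p = 0.00828). It was -3.46 ± 0.25 under HDM and -0.75 ± 0.25 under PBS. For Hc it was -2.77 ± 0.43 (limma adjusted p = 0.0386), from -2.68 ± 0.30 under HDM and 0.08 ± 0.30 under PBS. In both genes the 2 WT HDM libraries were the highest of the 8. No group was large enough to be searched for single outlying libraries.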

How the results depend on the processing

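Over all genes tested, cKO against WT under HDM gave 4 rises and 39 falls. Rises and falls came to 17 and 82 with a pseudocount of 5, 0 and 9 with no filter, 28 and 57 with a minimum mean of 50, 25 and 71 after quantile normalization, 0 and 0 without a trend, 7 and 42 with robust settings, 27 and 80 with library weights, 22 and 120 in a fit of the 4 HDM libraries, and 29 and 101 with DESeq2. With 1 library left out there were 0 to 36 rises and 3 to 93 falls. Under PBS, 0 genes passed in each of these settings other than leaving out a library, where the range was 0 to 315. The genotype difference under HDM minus that under PBS passed for 2 genes, and for 0 with a pseudocount of 0.2, with no filter or without a trend, 12 with a pseudocount of 5, 9 with a minimum mean of 50 or quantile normalization, 7 with edgeR and 27 with DESeq2. With 1 library left out it passed for 0 to 115. The cause was not tested. A fit of the PBS or HDM libraries alone cannot give that difference of differences.

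Of 112 named genes, 104 kept their direction in all 21 alternatives. The other 8 had main values near 0 and changed sign. Many of the alternatives could not change a direction. Leaving out a PBS library, another variance model or the replicate block left the HDM difference as it was. Genes whose HDM groups did not overlap could not reverse with 1 library left out. With 1 library left out, Srebf1 ranged from -0.82 to 0.19, Fn1 from -0.43 to 0.011, Muc5ac from -0.58 to 1.08, Cyp2f2 from -0.095 to 0.47, Scgb1a1 from -0.39 to 0.27, Retnla from -0.35 to 0.19 and Socs3 from -0.040 to 0.060. Clock ranged from -0.37 to 0.39. The ends that reversed the sign came without the second WT HDM library for Srebf1, Scgb1a1 and Retnla, without the first for Fn1 and Socs3, and without the second cKO HDM library for Muc5ac, Cyp2f2 and Clock. After quantile normalization Scgb1a1 stood at 0.28 and Retnla at 0.27. Over all settings the medians were -1.98 to -1.55 for type 2 genes, -1.25 to -0.66 for fatty acid synthesis and 0.77 to 0.95 for ciliated genes.

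With the replicate number as a replicate block, 5 genes rose and 43 fell under HDM, 0 passed under PBS and 3 for the difference. At 232556 to 593200 reads, a gene near 10 normalized counts rests on few reads per library, and 2 libraries a group leave intervals of about 4 log2 units for genes such as Socs3 or Muc5ac.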

Other observations

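Stress and signalling genes outside the main lists leaned lower in the libraries labelled cKO without passing. Of 17 tested immediate early genes, which stimuli switch on within minutes, 15 were below 0 with a median of -0.56, and none passed with limma, edgeR or DESeq2, 4 having an unadjusted p under 0.05 (limma). Nr4a1 stood at -1.57 ± 0.54 and Atf3 at -1.89 ± 0.72. Of 9 tested NF-kB genes 8 were below 0 with a median of -1.06, 1 had an unadjusted p under 0.05 and none passed with limma, edgeR or DESeq2. Among keratins, Krt8, which simple and injured epithelia express, was at 0.71 ± 0.27 without passing (limma adjusted p = 0.382).

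edgeR called 11 genes that limma did not, 10 of them lower in cKO HDM. Apart from those given above, they include Apoe, a lipid carrier of macrophages, at 95.9 and 174 normalized counts in WT HDM against 8.71 and 17.4 in cKO HDM. Itih4, an acute-phase protein of serum, was at 84.1 and 117 in WT HDM, against 2.90 and 3.32 in cKO HDM, with 0 to 20.3 under PBS. Cotl1, an actin-binding protein of leukocytes, was at 29.3 and 92.8 against 2.90 and 2.49. Sparc and Col6a2, both of connective tissue, completed them, at -2.77 ± 0.83 and -3.69 ± 1.15 by limma.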
